A study of Arabidopsis thaliana with 3 samples.

Results

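Transcripts of 7 cell cycle genes of Arabidopsis thaliana were examined in sperm cells and in mature pollen. They are the cyclin-dependent kinase genes CDKA;1 (AT3G48750), CDKB1;1 (AT3G54180), CDKB1;2 (AT2G38620), CDKB2;1 (AT1G76540) and CDKB2;2 (AT1G20930), and the CKS subunit genes CKS1 (AT2G27960) and CKS2 (AT2G27970). They were found by locus identifier, and all 7 were among the 33602 transcripts listed, with 1 transcript per locus. The genes were chosen by their measured levels in the sperm column, so those levels, and every difference between sperm and pollen, are a description with no test. Sperm cells are the pair of male gametes inside each pollen grain. They were collected from wild-type Col-0 plants by cell sorting on fluorescence, and 3 libraries were made from their RNA by Smart-seq2, which amplifies cDNA from small amounts of polyadenylated RNA. The series' design text names mature pollen as the other material of the study. No labelled sample is of pollen, and no source used here gives its genotype. Its library method is not known here either, and the part of method in the differences from sperm was not tested. The digits of its values are those of a mean of 2 libraries.

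The table gives 1 value per transcript for sperm and 1 for pollen, in TPM, a unit of transcript abundance that corrects for transcript length and gives each column the same total of 1000000. By the digits of the values, each is a mean over libraries. No value of a single library was used here, so no level below has an SD or an n, and no difference could be set against the spread between replicates. TPM holds no read counts, and the depth behind these levels is therefore unknown.

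A cyclin-dependent kinase is active only when bound to a cyclin. CDKA;1 is the Arabidopsis kinase with the PSTAIRE cyclin-binding motif that it shares with the main cell cycle kinases of yeast and animals. It acts at entry into S phase and into mitosis, and it is needed for timely division of the generative cell, which gives rise to the sperm pair. The B-type kinases are particular to plants and algae and act from S phase or G2 to mitosis, the CDKB2 genes later than the CDKB1 genes. CKS proteins are small adaptors that bind the kinase and help it dock on substrates that are already phosphorylated.

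The sperm column carried the transcripts of the male germline. All 7 germline genes examined, among them the sperm histone gene HTR10 at 4750 TPM, were higher in sperm than in pollen, and they summed to 42093 TPM in sperm and 388 TPM in pollen. The 4 genes of the vegetative cell, which encloses the sperm in the grain, were all above 1 TPM in sperm, at up to 127 TPM. They summed to 327.5 TPM in sperm against 26809 TPM in pollen, and their part in the levels below was not tested. The 3 leaf photosynthesis genes were all below 1 TPM in sperm and summed to 0.466 TPM there. In pollen all 3 were above 1 TPM, and they summed to 57.7 TPM. LHCB1.3 was at 37.7 TPM in pollen, above CKS2 at 31.4 TPM, the highest of the 7 cell cycle transcripts in that column. The part of leaf material in the pollen levels was not tested. The 10 most abundant transcripts held 45.4% of the sperm column and 28.8% of the pollen column. Since TPM is a share of the whole, fewer cells of a type and less RNA per cell cannot be told apart in such columns.

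In sperm, 6 of the 7 transcripts stood at or above 1 TPM, a level reached by 21.7% of all listed transcripts, and 4 stood at or above 100 TPM, a level reached by 2.29%. In pollen, 4 of the 7 stood at or above 1 TPM, against 17.8% of all listed, and none reached 100 TPM, against 1.60%. The median of the 7 was 203 TPM in sperm and 1.86 TPM in pollen. Because sperm levels chose the genes, nothing is read from the sperm counts about the genes as a set.

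**Figure D1:**
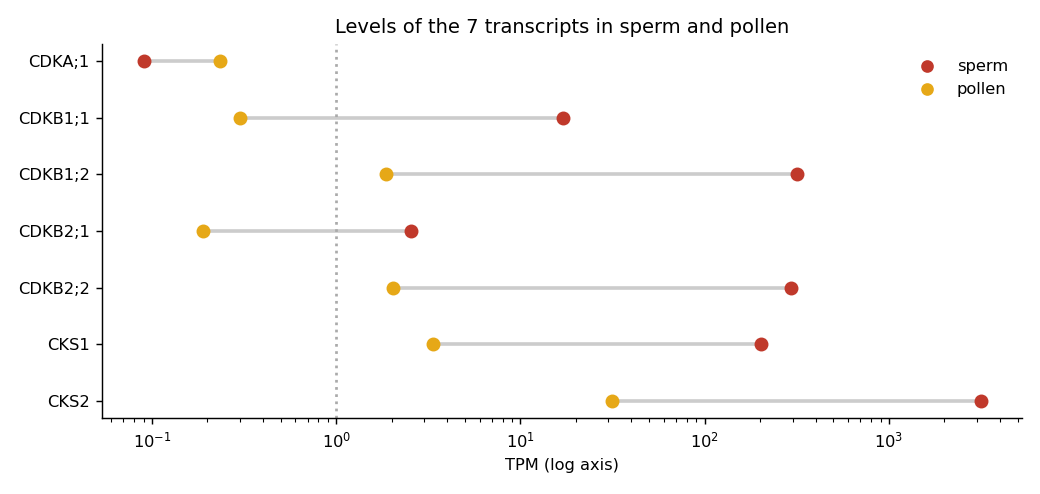
Level of each of the 7 transcripts in sperm (red) and pollen (yellow), in TPM on a log axis, with a dotted line at 1 TPM. Each point is the authors' value for 1 column. CDKA;1 lies below 1 TPM in both, while the other 6 lie to the right in sperm, up to 3144 TPM for CKS2.

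The PSTAIRE kinase transcript was near the bottom of the scale in both columns. AT3G48750 was at 0.0906 TPM in sperm and 0.235 TPM in pollen. It was thus the lowest of the 7 in sperm, and in pollen only AT1G76540 was lower. In sperm 39.0% of all listed transcripts ranked above it, and in pollen 31.8% did. The pollen value was 2.60 times the sperm value, but both are under 1 TPM and the log2(TPM + 1) difference, sperm minus pollen, was only -0.18. Taken as a mean of 3 libraries, the sperm value gives a sum of 0.272 TPM over them, so no one of them could have held more than that. Other isoforms of the locus were not analysed here.

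The CDKB1 genes, which act with A2-type cyclins in the divisions that form stomata, were unequal in sperm. CDKB1;2 was at 318 TPM in sperm, where it ranked 255 of all listed transcripts, and at 1.86 TPM in pollen. Only 0.756% of listed transcripts were above it in sperm, against 13.5% in pollen. Its paralog AT3G54180 was at 17.0 TPM in sperm, rank 2408, and at 0.299 TPM in pollen. The former was therefore 18.7 times the latter in sperm and held 94.9% of the summed CDKB1 level. In pollen the same gene led, with 86.2% of a sum of 2.16 TPM. The listed transcript of the leading gene is its second isoform (AT2G38620.2).

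The CDKB2 genes, which are needed for a normal G2 to mitosis transition and for an organised shoot meristem, were more unequal still. CDKB2;2 was at 293 TPM in sperm, rank 279, and at 2.03 TPM in pollen. Its paralog AT1G76540 was at 2.55 TPM in sperm, rank 5470, and at 0.190 TPM in pollen. The ratio between them was 115 in sperm, and the leading gene held 99.1% of the CDKB2 level there and 91.4% in pollen. The leading genes of both pairs stood at nearly the same level in sperm, AT2G38620 at 1.08 times AT1G20930, and in pollen they were in the opposite order, at 0.915 times. Paralogs share sequence, so how the authors' estimation divided reads within each pair is uncertain.

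Added together, the 5 kinase transcripts came to 630.2 TPM in sperm and 4.62 TPM in pollen. B-type kinases made up 99.99% of the sperm sum, with 50.4% from CDKB1;2 and 46.5% from CDKB2;2. The A-type kinase made up 0.0144% of it. In pollen the B-type share was 94.9%, with 40.3% and 44.0% from the same leading genes, and the A-type share was 5.10%. On the log2(TPM + 1) scale the summed B-type level exceeded the A-type level by 9.18 in sperm and by 2.12 in pollen. Both values depend on the pseudocount, because the A-type level is below 1 TPM in both columns, and they were 11.69 and 3.74 with a pseudocount of 0.1 TPM.

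**Figure D2:**
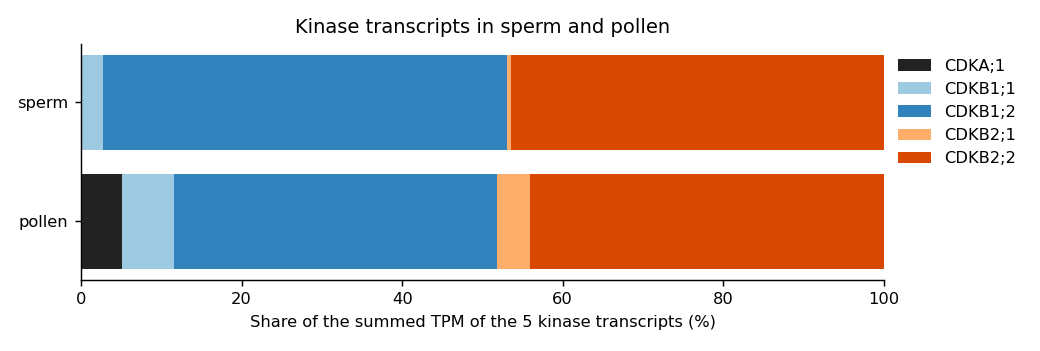
Share of each kinase transcript in the summed TPM of the 5 kinases, in percent, for sperm (sum 630.2 TPM) and pollen (sum 4.62 TPM). CDKB1;2 and CDKB2;2 fill most of both bars, and the CDKA;1 share is 0.0144% in sperm and 5.10% in pollen.

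The CKS pair had a higher summed level than the 5 kinases. CKS2 was at 3144 TPM in sperm, the 40th most abundant of all listed transcripts and 0.314% of the column, and at 31.4 TPM in pollen, where it ranked 1028. CKS1, whose product binds both A- and B-type kinases, was at 203 TPM in sperm, rank 383, and at 3.34 TPM in pollen, rank 3416. CKS2 was thus 15.5 times CKS1 in sperm and 9.41 times in pollen, and it held 93.9% and 90.4% of the CKS sum. The genes are direct neighbours on chromosome 2, with 0 annotated genes between them, and their proteins are close relatives, so the division of reads between them is uncertain as well.

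Against the kinases, the CKS transcripts were in excess in both columns. The CKS sum was 3346 TPM in sperm, 5.31 times the sum of the 5 kinases, and 34.7 TPM in pollen, 7.52 times. CKS2 alone was 9.90 times the highest kinase transcript in sperm and 15.4 times in pollen. The 7 transcripts together made up 0.398% of the sperm column and 0.00394% of the pollen column.

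Differences between the columns were taken on the log2(TPM + 1) scale, sperm minus pollen, which understates the change of low transcripts. They were 6.80 for CDKB1;2, 6.60 for CKS2, 6.60 for CDKB2;2, 5.55 for CKS1, 3.79 for AT3G54180 and 1.58 for AT1G76540. These 6 were past a difference of 1 (a fold of 2) towards sperm, as were 15.3% of all listed transcripts and 52.7% of the 9754 at or above 1 TPM in either column. None of the 7 was past it towards pollen, as were 9.12% and 31.4%. The median difference was 0 over all listed transcripts and 1.12 over the 9754, and it was 5.55 over the 7. Of all listed transcripts, 0.229% had a larger difference than CDKB1;2, 0.327% than CKS2 and 0.330% than CDKB2;2. For AT1G76540 the figure was 12.04%.

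In plain TPM, the pollen level was 0.586% of the sperm level for CDKB1;2, 0.694% for CDKB2;2 and 0.999% for CKS2. The germline markers gave 0.773% (DUO1, a transcription factor gene of the male germline) to 2.63% (GEX2, a gamete membrane protein gene), with HTR10 at 0.785%. Both leading B-type kinases were below that range, at a still smaller pollen share than any of the 7 markers. This was not particular to them among cell cycle genes. The inhibitor gene KRP7 at 0.314%, the cyclin genes CYCD7;1 at 0.493% and CYCB1;2 at 0.524%, and the replication gene MCM7 at 0.673% were also below it. CKS2, CKS1 at 1.65% and AT3G54180 at 1.76% were inside the marker range. AT1G76540 was above it at 7.47%, and the A-type kinase, at 260.0%, was the only member with a higher value in pollen. The 4 vegetative cell markers were between 5070% and 16091%, far above every member. With 1 value per column, none of these positions has an error.

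**Figure D3:**
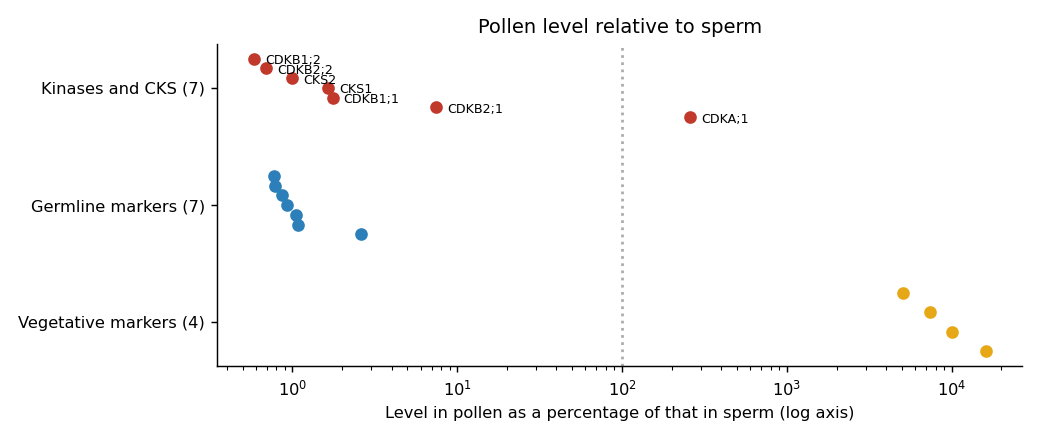
Level in pollen as a percentage of the level in sperm, on a log axis, for the 7 cell cycle transcripts, 7 germline markers and 4 vegetative cell markers, 1 point per gene, with a dotted line at equal levels. CDKA;1 at 260.0% is the only cell cycle transcript to the right of the line, and 3 of the others lie inside the marker range of 0.773% to 2.63%.

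The 7 transcripts were then set beside 66 other cell cycle genes in 9 lists. Of the 66, 38 were at or above 1 TPM in sperm, against 21.7% of all listed transcripts, 6 were listed at 0, and the median was 2.31 TPM. Between sperm and pollen, 33 of the 66 were past the difference of 1 towards sperm and 5 towards pollen, against 15.3% and 9.12% of all listed transcripts. Of the 9754 transcripts at or above 1 TPM in either column, 52.7% were past it towards sperm and 31.4% towards pollen. The median difference of the 66 was 1.03, against 0 over all listed transcripts and 1.12 over the 9754. The lists were uneven, and their members' levels in sperm ran from 0 to 35229 TPM.

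Cyclins, the binding partners of the kinases, were uneven in sperm. Their counts at 1 TPM stand beside 21.7% of all listed transcripts. Of 9 B-type cyclins, which act in mitosis, 7 were at or above 1 TPM. The same number were higher in sperm than in pollen by the difference of 1. That difference was passed by 15.3% of all listed transcripts and 52.7% of the 9754 at or above 1 TPM in either column. CYCB1;2 was at 1104 TPM and CYCB3;1 at 96.2 TPM, against 5.79 and 1.69 TPM in pollen, and CYCB2;4 was lowest at 0.115 TPM. Of 10 A-type cyclins, 4 were at or above 1 TPM in sperm and 4, among them CYCA3;3, were listed at 0. CYCA2;1 was highest at 32.3 TPM, then CYCA1;1 at 31.7 TPM. Of 10 D-type cyclins, which act at entry into the cycle and chiefly with the A-type kinase, 5 were at or above 1 TPM. Among these CYCD7;1 was at 35229 TPM in sperm and 174 TPM in pollen, and the next, CYCD1;1, was at 19.2 TPM. The lowest D-type cyclin, CYCD4;2, was listed at 0 in sperm. The cyclin with the highest level in sperm was therefore of the D type, while the kinase transcripts were nearly all of the B type.

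Some genes that activate or restrain the kinases reached 1 TPM in sperm, a level reached by 21.7% of all listed transcripts. Of the 6 genes for kinase activators and for the inhibitory kinase WEE1, 2 were at or above 1 TPM in sperm. They were CYCH;1, a cyclin partner of D-class activating kinases, at 5.15 TPM, and one of the D-class kinases, AT1G18040, at 2.12 TPM. The lowest was another of them, AT1G73690, at 0.00889 TPM. Of 9 CDK inhibitors, 3 were at or above 1 TPM, with KRP7 at 15.0 TPM, KRP6 at 7.13 TPM and KRP4 listed at 0. KRP7 was at 0.0469 TPM in pollen, a log2(TPM + 1) difference of 3.93. Of 5 genes for other CDK classes, 2 were at or above 1 TPM, CDKG1 at 33.3 TPM and AT5G64960 (a C-class kinase) at 2.31 TPM. AT5G63610, the E-class kinase of the Mediator complex, was lowest at 0.0855 TPM and was higher in pollen, at 2.85 TPM.

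The remaining lists hold genes that act beside or after the kinases. Their counts at 1 TPM in sperm stand beside 21.7% of all listed transcripts. All 5 activators of the APC/C, the ligase that marks mitotic cyclins for destruction, were at or above 1 TPM in sperm, from 1.45 TPM for CDC20.2 to 12.1 TPM for CCS52A2, with CCS52A1 at 5.81 TPM. Among mitotic kinases and cytokinesis genes AUR3 was at 345 TPM and AUR2 at 109 TPM in sperm, and HINKEL, a kinesin gene needed to build the cell plate, was lowest at 0.196 TPM. AUR3 was at 2.94 TPM in pollen, a difference of 6.46, whereas AUR2 was at 68.4 TPM there, a difference of 0.67. The remaining Aurora gene, AUR1, named after its values were seen, was at 37.3 TPM in sperm and 112 TPM in pollen, a difference of -1.57, past the limit towards pollen. All 7 S phase genes were at or above 1 TPM in sperm and past the difference of 1 towards sperm, with a median difference of 4.68. Past that difference towards sperm were 15.3% of all listed transcripts and 52.7% of the 9754 at or above 1 TPM in either column. MCM7, a subunit of the replicative helicase, was at 309 TPM, and CDT1A, which loads that helicase, was at 287 TPM. PCNA2, a sliding clamp gene, was lowest at 1.67 TPM.

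**Figure D4:**
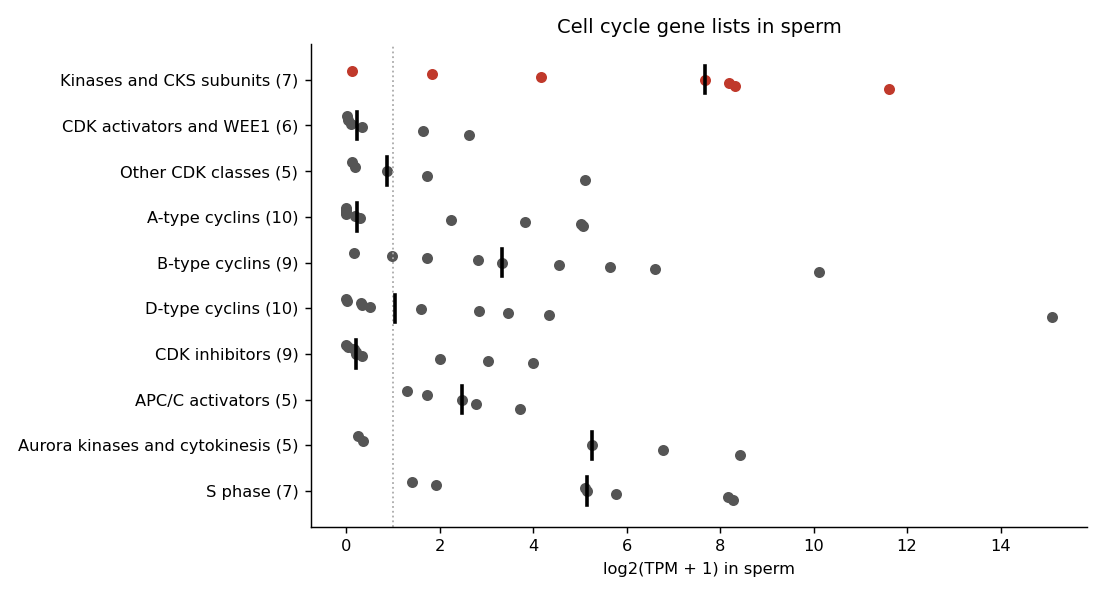
Levels in sperm, as log2(TPM + 1), of the 7 kinase and CKS transcripts (red) and of 9 lists of other cell cycle genes (grey, number of genes in brackets), with each set's median as a black bar and a dotted line at 1 TPM. The medians of the 9 lists run from 0.153 TPM for CDK inhibitors to 37.3 TPM for Aurora kinases and cytokinesis. The median of the kinases and CKS subunits is 203 TPM, but these 7 were chosen by their sperm levels, so nothing is read from that contrast.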

How the data were processed

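The authors deposited TPM values, that is, abundances per transcript length scaled to 1000000 per column, as the column sums show. Per the submitters' processing notes, the build was TAIR10 and the tools were kallisto 0.43.1, STAR 2.5.2a, Trim Galore 0.4.1, bedtools and SAMtools, with no role or order stated. Neither the annotation nor the filters are named by any source used here. Of 679 sperm values from 100 to 1000 TPM, multiplying by 3 turned 92.5% into whole steps of 0.001 TPM (tolerance 0.03 of 1 step), against 30.2% unmultiplied, as a mean of 3 libraries would give. For 402 pollen values, multiplying by 2 did so for 96.3%, against 51.5% unmultiplied, as a mean of 2 would give. The pollen column is the authors' value for material outside the labelled samples. The table has 12 further columns, for tissues that, like pollen, match no labelled sample. Pollen was kept as the material that the design text names. The 12 were not used here, and comparisons planned across all columns were made between sperm and pollen instead. Whether the levels and shares given above also hold in other tissues was therefore not tested.

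Members and lists were chosen with earlier results of these data known. Differences are log2(TPM + 1) in sperm minus pollen, counted from 1. Genes named were the 7 members and, of each list, the 2 highest and 1 lowest in sperm, besides markers. Names were checked against a RefSeq table for TAIR10.1, matched on locus tags, with gene order its only other use. That reference does not hold the names KRP4 and HTR10 for their loci. Sequences were not used here. Alternatives were another pseudocount, threshold, fold, filter and scaling. The difference was checked on planted values and the rescaling on its totals, which tests their arithmetic only. Calculations were run with Python 3.11.15, pandas 2.3.3 and NumPy 2.4.6.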

Additional observations from a re-analysis of the deposited data

How the results depend on the processing

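No alternative that was run reversed a difference between sperm and pollen, and the counts of 6 members higher in sperm and 0 lower changed under none of them except a fold of 4, which left 5 higher. Of 27 recalculated differences, 23 stayed within 1.5 times. These include the differences under the filter at 1 TPM, which repeat the main values. That filter could change neither a difference it kept nor the 2 counts. A pseudocount of 0.1 TPM gave -0.82 for CDKA;1, 5.42 for CDKB1;1 and 3.19 for CDKB2;1, and it gave log2 ratios of B-type kinases to the A-type kinase of 11.69 in sperm and 3.74 in pollen. Rescaling each column without its 10 highest transcripts multiplied sperm levels by 1.83 and pollen levels by 1.41, moved the median difference of transcripts at or above 1 TPM by 0.42, and gave 4.50 for CDKB1;1. Rescaling without organelle and vegetative cell marker transcripts, a choice made after seeing the data, moved that median by -0.02. At a threshold of 5 TPM, 5 members counted as present in sperm. Alternatives that need several tissue columns (a mean over columns, and the genes with the most similar profiles) or values per library (leaving out a sperm replicate) were not run. No paired analysis was possible because sperm has 1 column and no test was made.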
